A study of Mus musculus with 4 samples.

Results

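The 10 amino acid transporter genes Slc7a1, Slc7a3, Slc7a5, Slc7a7, Slc7a11, Slc3a2, Slc38a2, Slc1a5, Slc6a9 and Slc43a1 were taken from the 37620 genes of the count table by their symbols, and all 10 were found and tested. RNA-seq had been done on 2 mouse embryonic stem cell (mESC) lines, WT_CTCF and MUT_CTCF, with 2 libraries each. In both lines the endogenous CTCF carried a degron tag and was degraded with auxin, and a vector supplied wild-type CTCF in its place in WT_CTCF or, in MUT_CTCF, CTCF mutated at a threonine so that O-GlcNAc is not attached there. Each line was a clone chosen for an exogenous CTCF level close to the endogenous one, so the mutation and the clone cannot be told apart. Both lines were grown on gelatin in medium with 15% serum, 2 mM L-glutamine, 0.1 mM nonessential amino acids, 0.1 mM β-mercaptoethanol and 1000 U/mL LIF. The comparison of MUT_CTCF with WT_CTCF mESCs asks which of these transporter RNAs differ when CTCF lacks this modification. The study names the 2 libraries of a line biological replicates, but no source says that they came from separate cultures. The p-values therefore measure the spread between these libraries only.

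Amino acid transporters of the plasma membrane supply cells with building blocks for protein and nucleotides and feed the sensing of amino acids by mTORC1. Cationic amino acids such as arginine and lysine enter mainly through SLC7A1 and SLC7A3. SLC7A5, SLC7A7 and SLC7A11 are light chains that carry the substrate and reach the membrane only when bound to the heavy chain SLC3A2 (CD98). Neutral amino acids are taken up with sodium by SLC38A2, SLC1A5 and SLC6A9, and SLC43A1 carries large neutral amino acids without a heavy chain. Several of these genes are known targets of the transcription factor ATF4, which acts when amino acids are short, through a CARE (C/EBP-ATF response element) in the DNA.

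The libraries held 40524694 to 40977464 counts, and 16264 genes passed the filter on low counts. Normalized counts below are counts scaled to the mean library, and log2 fold changes are MUT_CTCF over WT_CTCF from edgeR's quasi-likelihood test, adjusted over all 16264 genes. A gene was called at an adjusted p under 0.05. Among all tested genes, 1.56% were called higher and 1.61% lower in MUT_CTCF mESCs, which is 253 and 262 genes and 3.17% in either direction, and with scaling by library size only these counts were 260 and 152. Any single value compared over 2 libraries a line has 0.333 as its smallest possible two-sided p in an exact permutation test, and the tests here therefore lean on the spread edgeR estimates across genes. Ctcf itself had 18273 and 18625 counts in WT_CTCF and 18954 and 19233 in MUT_CTCF mESCs (log2 fold change 0.044, edgeR adjusted p = 0.499), with endogenous and exogenous transcripts counted together. The pluripotency markers Pou5f1, Sox2, Nanog, Esrrb, Klf4, Zfp42, Tdgf1 and Utf1 summed to 2243 to 2257 RPKM (counts divided by exon length and library size) in WT_CTCF and 2240 to 2244 in MUT_CTCF mESCs. Among them Sox2 was called higher and Utf1 lower. Markers of other cells were low, and of these Cdx2 was called lower. The same sum was 9.48 to 10.2 against 10.8 to 11.7 for 6 fibroblast genes and 7.06 to 8.86 against 7.21 to 7.50 for 4 mesendoderm genes. It was 5.94 to 6.43 against 4.37 to 4.76 for 5 trophectoderm genes, 2.33 to 2.37 against 2.74 to 3.92 for 6 primitive endoderm genes and at most 0.134 for the 4 neural genes found. No marker was at 0 in all 4 libraries. In bulk RNA, fewer cells of a type and less RNA per cell cannot be told apart, and the part of such cells in the values below was not tested.

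In MUT_CTCF mESCs 2 of the 10 transporters were called, Slc1a5 and Slc7a1, and both rose. Over all tested genes, 1.56% were called higher and 1.61% lower. Slc1a5 encodes ASCT2, an exchanger for glutamine and other small neutral amino acids, and rose by 23.1%. Slc7a1 encodes CAT-1, the main carrier for arginine and lysine in many cells, and rose by 15.0%. None of the 10 was called lower by edgeR's quasi-likelihood test or by edgeR's exact test. DESeq2 called none of them lower either, but gave no adjusted p to Slc7a7, Slc7a11, Slc6a9 and Slc43a1. At an unadjusted p under 0.05, 4 were higher (Slc7a1, Slc7a5, Slc1a5 and Slc6a9) and 0 lower, beside 7.61% of all tested genes that were higher and 7.65% that were lower at that limit. The median log2 fold change of the 10 was 0.078, beside 0.0034 over all tested genes. The 8 that were not called had a median of 0.063. The lower MUT_CTCF library exceeded the higher WT_CTCF library for 7 of the 10, a pattern that 22.3% of all tested genes also showed. The study had asked for a fold change above 2 beside an unadjusted p under 0.05, and none of the 10 passed both, beside 0.947% of all tested genes that passed as higher and 0.357% as lower.

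**Figure D1:**
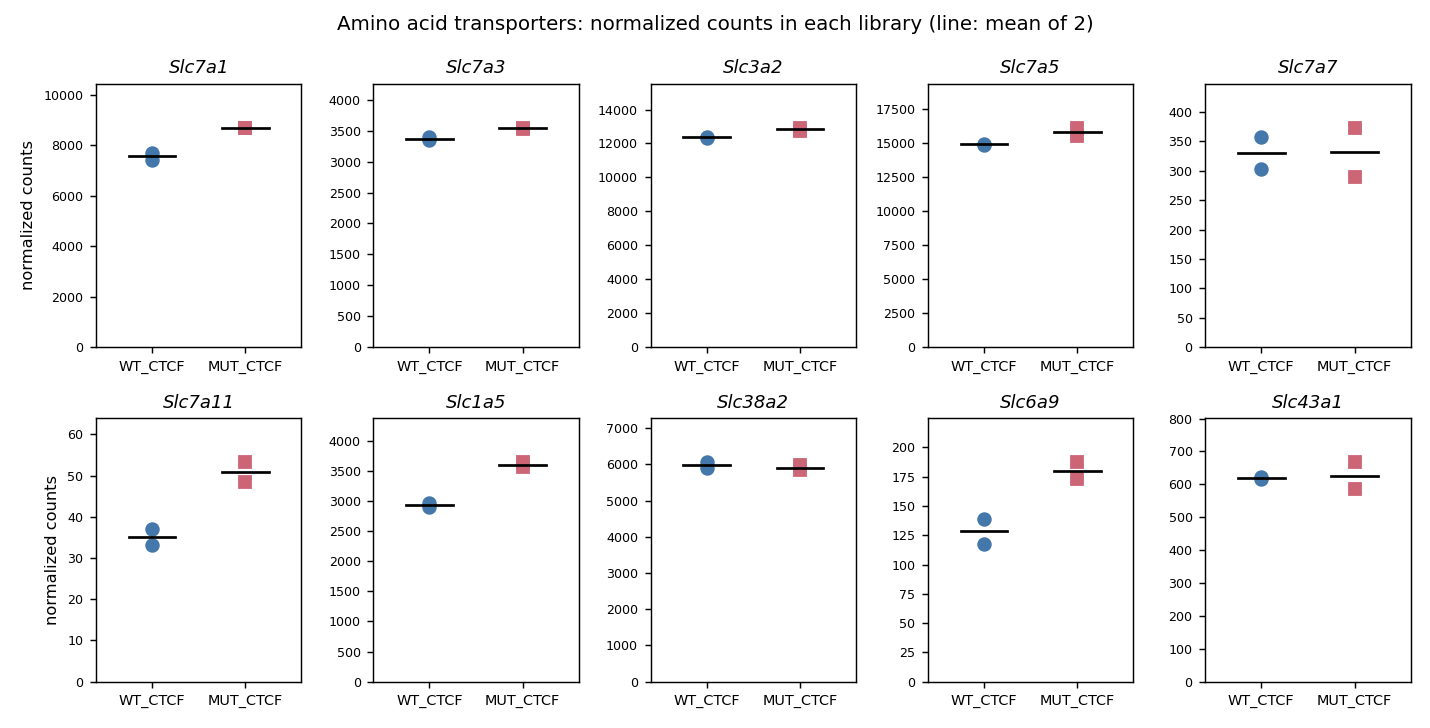
Normalized counts (y axes, each from 0) of the 10 transporter genes in the 2 WT_CTCF (circles) and 2 MUT_CTCF (squares) libraries, with the mean of each line as a bar. Slc1a5 (2929 against 3606 on average) and Slc7a1 (7558 against 8694) were called, and the libraries of Slc7a7, Slc38a2 and Slc43a1 overlapped.

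Promoter windows from RefSeq (GRCm38.p6), 250 bases before to 50 after a transcript start, were at hand for 7 of the 10 genes and held 14 starts in all. There was no entry for Slc7a3, Slc7a5 and Slc1a5. A called gene, Slc7a1, is shown beside the heavy chain gene Slc3a2 and the light chain genes Slc7a11 and Slc7a7, the last with the most upstream of its 5 starts. Capitals mark matches, on either strand, to CARE (TGATGNAA), the antioxidant response element bound by NRF2 (ARE, TGACNNNGC), a degenerate core of the CTCF site, the E-box (CACGTG) and the core of the hypoxia response element (HRE, ACGTG), which lies within the E-box.
Slc7a1 (chr5:148399855-148400154, minus strand): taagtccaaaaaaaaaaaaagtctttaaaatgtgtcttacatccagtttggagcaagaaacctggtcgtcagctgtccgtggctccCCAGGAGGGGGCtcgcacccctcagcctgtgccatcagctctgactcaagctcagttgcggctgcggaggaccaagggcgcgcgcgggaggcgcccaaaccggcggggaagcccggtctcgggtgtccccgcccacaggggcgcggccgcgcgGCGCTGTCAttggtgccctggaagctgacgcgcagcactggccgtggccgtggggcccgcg
Slc3a2 (chr19:8713848-8714147, minus strand): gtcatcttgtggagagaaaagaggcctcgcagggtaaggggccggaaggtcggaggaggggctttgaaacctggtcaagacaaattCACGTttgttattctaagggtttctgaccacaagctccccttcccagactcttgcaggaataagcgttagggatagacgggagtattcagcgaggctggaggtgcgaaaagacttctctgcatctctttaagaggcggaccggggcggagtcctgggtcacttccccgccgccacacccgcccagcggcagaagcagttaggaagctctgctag
Slc7a11 (chr3:50443564-50443863, minus strand): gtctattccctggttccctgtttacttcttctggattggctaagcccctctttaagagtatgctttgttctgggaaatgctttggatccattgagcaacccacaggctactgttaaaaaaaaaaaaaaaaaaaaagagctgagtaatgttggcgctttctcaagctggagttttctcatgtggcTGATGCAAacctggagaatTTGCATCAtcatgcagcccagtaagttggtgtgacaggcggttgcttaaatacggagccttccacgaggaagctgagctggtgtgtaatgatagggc
Slc7a7 (chr14:54417895-54418194, minus strand): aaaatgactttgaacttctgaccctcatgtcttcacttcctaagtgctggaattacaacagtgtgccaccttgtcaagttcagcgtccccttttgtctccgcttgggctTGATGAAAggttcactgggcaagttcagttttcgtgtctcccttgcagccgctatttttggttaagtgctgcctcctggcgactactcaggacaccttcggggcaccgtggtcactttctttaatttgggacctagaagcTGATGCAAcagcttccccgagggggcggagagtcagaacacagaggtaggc
The Slc7a1 window held 1 match to the CTCF core, CCAGGAGGGGGC from -164 to -153 relative to the start, and 1 to ARE, from -11 to -3. Its second window, from a start further downstream, held no match to any of the 5 motifs. The Slc7a11 window held 2 matches to CARE on opposite strands, TGATGCAA from -66 to -59 and TTGCATCA from -47 to -40. Slc7a7 had 2 CARE matches, of which the one nearer to the start lies across it. Slc3a2 had 1 match to the HRE core, from -164 to -160, and none to CARE. Over all 32851 windows, 3.97% held CARE, 12.4% ARE, 2.43% the CTCF core, 7.15% the E-box and 19.6% the HRE core. The windows not shown held ARE for Slc38a2, Slc43a1 and for 2 of 3 starts of Slc6a9, and an E-box for Slc43a1. The next windows of Slc7a7 overlap the one shown and each other, so that the CARE match in 1 of them is the site across the start shown, and the HRE core match in 2 of them is 1 site. A match describes the letters and does not show that a factor binds there.

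Among the carriers of cationic amino acids, Slc7a1 was called and Slc7a3 was not. Slc7a1 (ENSMUSG00000041313, chromosome 5 of mm9, 149138986 to 149211480, minus strand) had 7416 and 7670 counts in WT_CTCF and 8756 and 8666 in MUT_CTCF mESCs. Both MUT_CTCF libraries were above both WT_CTCF libraries, and the gap between the lines was wider than that within either line. Its log2 fold change was 0.20 (standard error 0.036, edgeR adjusted p = 0.000167). Slc7a3 (ENSMUSG00000031297, chromosome X, 98274549 to 98281359, minus strand) encodes CAT-3, a related carrier that is common in early embryos and brain. It had 3389 and 3345 counts in WT_CTCF and 3567 and 3538 in MUT_CTCF mESCs, a small and separated difference. Its log2 fold change of 0.072 did not pass (standard error 0.049, edgeR adjusted p = 0.539), with a 95% interval from -0.027 to 0.17. Per exon length, Slc7a1 stood at 1.10 and 1.15 times Slc7a3 in the WT_CTCF libraries and at 1.23 and 1.23 times in the MUT_CTCF libraries. The third carrier of the group, Slc7a2, was low, and Slc7a1 made up 52.2% ± 0.776 (SD, n = 2) of the 3 genes' summed level per exon length in WT_CTCF mESCs and 54.5% ± 0.0242 (SD, n = 2) in the mutant line. With 2 libraries a line, the exact permutation test cannot show this difference at a p under 0.05.

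The heavy chain and its partners did not pass. Slc3a2 (ENSMUSG00000010095, chromosome 19, 8781372 to 8797859, minus strand) had 12317 and 12372 counts in WT_CTCF and 13053 and 12702 in MUT_CTCF mESCs. The groups did not overlap, and the log2 fold change was 0.055 (standard error 0.031, edgeR adjusted p = 0.416), with a 95% interval of the fold from 0.995 to 1.09. Slc7a5 (ENSMUSG00000040010, chromosome 8, 124405052 to 124431594, minus strand) encodes LAT1, which brings in leucine and other large neutral amino acids in exchange for glutamine. It had 14951 and 14863 counts in WT_CTCF and 15630 and 16078 in MUT_CTCF mESCs, and was higher in both MUT_CTCF libraries. Its log2 fold change of 0.083 did not pass (standard error 0.030, edgeR adjusted p = 0.128), although its unadjusted 95% interval ran from 0.023 to 0.14. Per exon length Slc3a2 stood at 0.948 and 0.953 times the sum of its 3 partners among these genes in the WT_CTCF libraries and at 0.964 and 0.905 times in the MUT_CTCF libraries, so the 2 lines overlapped. Slc7a5 made up 96.6% ± 0.372 (SD, n = 2) of this sum in WT_CTCF mESCs and 96.8% ± 0.460 (SD, n = 2) in the mutant line. The sum leaves out the light chain genes Slc7a6, Slc7a8 and Slc7a10, which are not among the 10. Slc7a6 stood at 28.2 RPKM in WT_CTCF and 27.4 in MUT_CTCF mESCs. With these genes added, Slc3a2 stood at 0.744 and 0.742 times the sum in the WT_CTCF libraries. In the MUT_CTCF libraries it stood at 0.755 and 0.732 times that sum.

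The other light chain genes among the 10, Slc7a7 and Slc7a11, were far lower. Slc7a7 (ENSMUSG00000000958, chromosome 14, 54989128 to 55032856, minus strand) encodes y+LAT1, which exports cationic amino acids in exchange for neutral ones. It had 303 and 356 counts in WT_CTCF and 292 and 372 in MUT_CTCF mESCs, so the lines overlapped (log2 fold change 0.0061, standard error 0.145, edgeR adjusted p = 0.990) and a 95% interval from -0.29 to 0.30. Its exons share 226 of 2270 bases with Oxa1l on the other strand, which had 4545 to 4914 counts, and whether reads were counted by strand is not given in the sources used here. Slc7a11 (ENSMUSG00000027737, chromosome 3, 50168858 to 50247535, minus strand) encodes xCT, which takes up cystine, the source of cysteine for glutathione, in exchange for glutamate. It had 37 and 33 counts in WT_CTCF and 49 and 53 in MUT_CTCF mESCs, and was the only one of the 10 with fewer than 100 counts in every library. Its log2 fold change was the largest of the 10 at 0.54 and did not pass (standard error 0.421, edgeR adjusted p = 0.613). The 95% interval of the fold, from 0.809 to 2.60, shows how little these counts can tell.

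Of the 4 carriers of neutral amino acids that work without SLC3A2, Slc1a5 was called and Slc38a2, Slc6a9 and Slc43a1 were not. Slc1a5 (ENSMUSG00000001918, chromosome 7, 17366695 to 17383623, plus strand) had 2893 and 2953 counts in WT_CTCF and 3675 and 3552 in MUT_CTCF mESCs. The smallest of the 4 ratios of a MUT_CTCF to a WT_CTCF library was 0.27 on the log2 scale and the largest 0.33. The log2 fold change was 0.30 (standard error 0.051, edgeR adjusted p = 6.17e-05), with a 95% interval of the fold from 1.15 to 1.32. Slc38a2 (ENSMUSG00000022462, chromosome 15, 96517825 to 96530129, minus strand) encodes SNAT2, which takes up alanine and glutamine with sodium and is known to be induced when amino acids are short. It had 5894 and 6045 counts in WT_CTCF and 6028 and 5821 in MUT_CTCF mESCs, which overlapped. Its log2 fold change was -0.017 (standard error 0.040, edgeR adjusted p = 0.905), with a 95% interval of the fold from 0.935 to 1.05. Per exon length Slc1a5 stood at 0.546 and 0.544 times Slc38a2 in the WT_CTCF libraries and at 0.679 and 0.679 times in the MUT_CTCF libraries.

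Slc6a9 (ENSMUSG00000028542, chromosome 4, 117507111 to 117547803, plus strand) encodes the glycine transporter GLYT1. It had 117 and 139 counts in WT_CTCF and 189 and 172 in MUT_CTCF mESCs, without overlap. Its log2 fold change of 0.49 did not pass (standard error 0.208, unadjusted p = 0.0223, edgeR adjusted p = 0.231). Its exons share 1429 of 5141 bases with Ccdc24 on the other strand, which had at most 1 count in a library, and 46 with B4galt2, which had 541 to 594. Slc43a1 (ENSMUSG00000027075, chromosome 2, 84679007 to 84703751, plus strand) encodes LAT3, which carries leucine and other large neutral amino acids without SLC3A2. It had 622 and 614 counts in WT_CTCF and 591 and 664 in MUT_CTCF mESCs, and its log2 fold change of 0.017 did not pass (standard error 0.106, edgeR adjusted p = 0.968). The 95% interval of its fold, from 0.873 to 1.17, holds a change as large as that of Slc7a1.

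**Figure D2:**
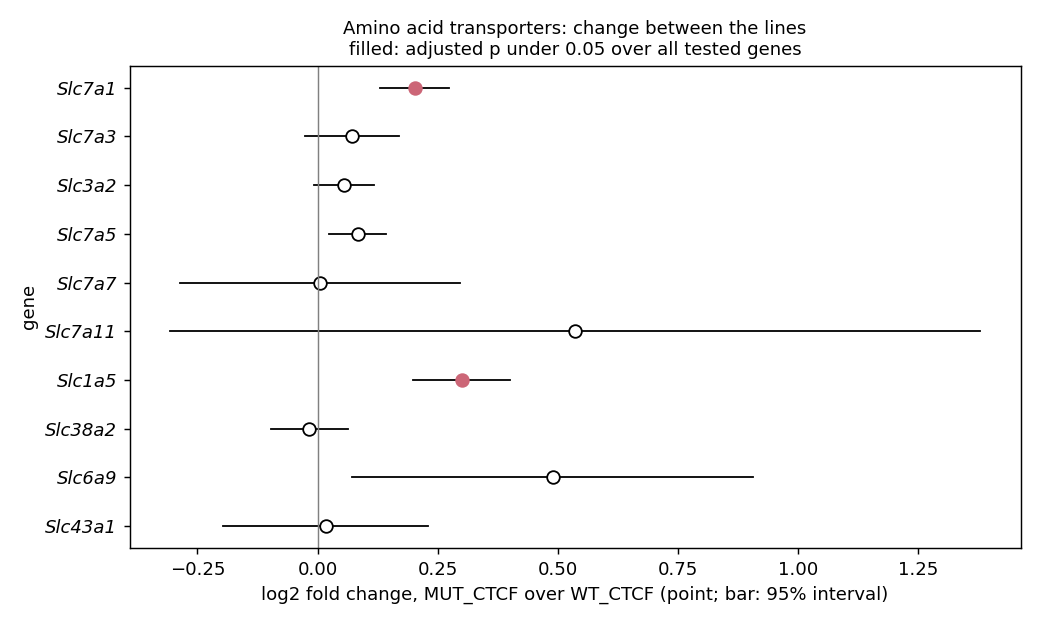
Log2 fold change of each transporter gene (x axis; points) with its unadjusted 95% interval (bars), grouped by role, and filled points were called. Slc7a1 (0.20) and Slc1a5 (0.30) are filled, and the intervals of Slc7a11 and Slc6a9 are wide because these genes have few counts.

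In the edgeR fits without a WT_CTCF library both calls held, with an adjusted p of 0.00549 and 0.000985 for Slc1a5 and of 0.0376 and 0.00154 for Slc7a1. In the fits without MUT_CTCF replicate 1 or 2, edgeR called 0 of all genes tested (1651 and 1585 had an unadjusted p under 0.05), and the log2 fold changes were 0.28 and 0.31 for Slc1a5 (adjusted p = 0.387 and 0.381) and 0.20 and 0.20 for Slc7a1 (adjusted p = 0.393 and 0.398). Without the filter on low counts neither passed, with an adjusted p of 0.0701 for Slc1a5 (over the settings tried, 9.9e-07 to 0.387) and of 0.103 for Slc7a1 (over the settings tried, 3.12e-06 to 0.398). That fit called 29 genes in all.

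The transporters spanned over 3 orders of magnitude in level. In RPKM, Slc7a5 (104.2 ± 0.379, SD, n = 2, in WT_CTCF mESCs) and Slc3a2 (102.5 ± 0.378) were the highest and nearly equal, and together they held 66.0% to 67.1% of the summed level of the 10 genes in a library. Slc38a2 followed at 31.7 ± 0.584, Slc7a1 at 24.6 ± 0.599, Slc7a3 at 21.9 ± 0.190 and Slc1a5 at 17.3 ± 0.260. Slc7a7 (3.57 ± 0.407), Slc43a1 (2.66 ± 0.0229), Slc6a9 (0.612 ± 0.0747) and Slc7a11 (0.0765 ± 0.00614) were lower. The order was the same in MUT_CTCF mESCs, and in both lines the libraries of each gene lay above those of the next in this order. The lengths are those of all annotated exons of a gene, which understates the level of a gene whose long exons are not used. The summed level of the 10 genes was 307.8 to 310.3 in the WT_CTCF and 326.3 to 329.7 in the MUT_CTCF libraries. Most of this sum is held by Slc7a5 (104.2 against 110.4 on average) and Slc3a2 (102.5 against 106.5), which were not called. Over all tested genes the summed level was 368853 to 372065 in the WT_CTCF and 362847 to 363842 in the MUT_CTCF libraries.

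**Figure D3:**
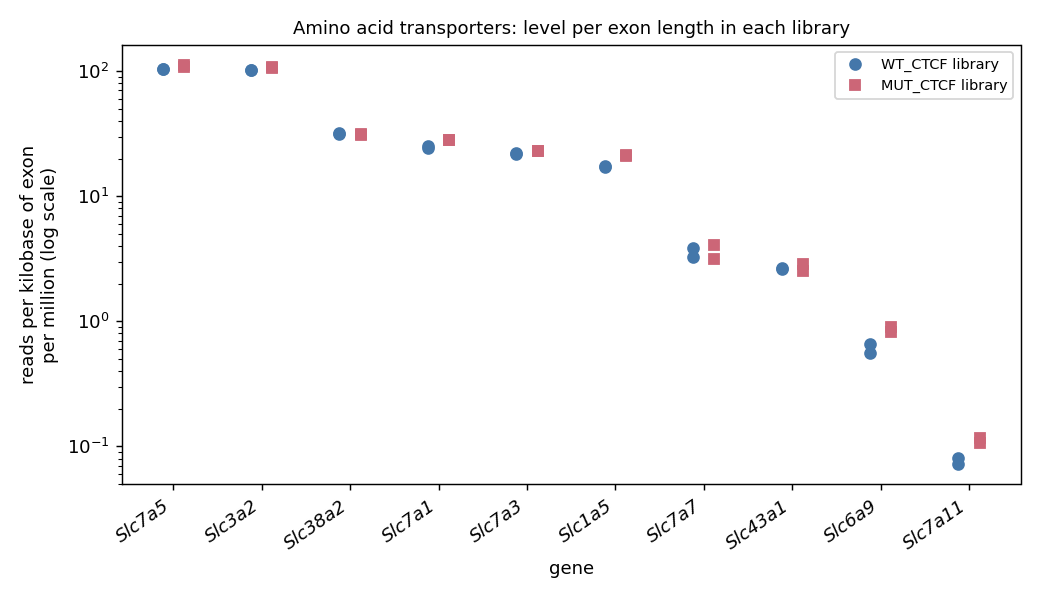
Level of each transporter gene in RPKM (y axis, log scale) in the 2 WT_CTCF (circles) and 2 MUT_CTCF (squares) libraries, ordered by the WT_CTCF mean. Slc7a5 and Slc3a2 lie near 100, and Slc7a11 lies at 0.0721 to 0.116.

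The 10 genes lie on 10 different chromosomes. Around Slc1a5, Ap2s1 (log2 fold change 0.043), Grlf1 (-0.0028) and Strn4 (0.029) did not pass (edgeR adjusted p = 0.779, 0.981 and 0.815). Beside Slc7a1, Ubl3 (-0.10), Gm10167 (-0.20) and Mtus2 (0.16) did not pass (edgeR adjusted p = 0.469, 0.750 and 0.471). These neighbours were chosen by place after the calls were known. Among 8280 other genes with a mean of at least 500 normalized counts, Glipr2, Egln1, Stat5b, Sema4a and Slc44a2 were closest to Slc1a5 in their centred log2 CPM over the 4 libraries, with distances of 0.0141 to 0.0402 and log2 fold changes of 0.28 to 0.33. With 4 libraries of 2 lines, this likeness describes a gap of similar size between the lines and little more.

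Among 38 other genes listed as amino acid transporters of the plasma membrane, 25 had enough counts to be tested. Of these, 1 was called higher and 0 lower, beside 1.56% and 1.61% of all tested genes. Their median log2 fold change was 0.036. At an unadjusted p under 0.05, 5 were higher and 1 lower, beside 7.61% and 7.65% of all tested genes. The called gene was Slc1a4 (chromosome 11, 20202183 to 20232716), which encodes ASCT1, the nearest relative of ASCT2 and a carrier of serine, alanine and cysteine. It had 1858 and 1853 counts in WT_CTCF and 2422 and 2345 in MUT_CTCF mESCs, and its log2 fold change was 0.36 (standard error 0.061, edgeR adjusted p = 8.28e-05). Slc1a4 thus rose in MUT_CTCF mESCs by a similar amount to Slc1a5. It did not pass without the filter on low counts (adjusted p = 0.0701, from 1.59e-06 to 0.387 over the settings tried) or without MUT_CTCF replicate 1 or 2 (0.387 and 0.381). Slc38a10 and Slc38a4, the highest of the list per exon length, had log2 fold changes of -0.011 and 0.035 that did not pass, and that of Slc38a10 turned positive (0.0014) with scaling by library size only. Slc38a10 shares 367 exon bases with Gm11769 on the other strand.

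Of 13 lysosomal and vesicular transporters, 12 were found, 9 were tested and 1 was called, beside 3.17% of all tested genes. Slc36a1 was the called gene and encodes PAT1, an exporter of small amino acids from the lysosome. It rose (log2 fold change 0.24, standard error 0.067, edgeR adjusted p = 0.0304). It had 1627 and 1538 counts in WT_CTCF and 1944 and 1812 in MUT_CTCF mESCs, without overlap. Slc36a1 did not pass with DESeq2 (adjusted p = 0.0609), without WT_CTCF replicate 1 (0.0786), without WT_CTCF replicate 2 (0.278) or without the filter (0.279, and over the settings tried, 0.0121 to 0.508), nor without MUT_CTCF replicate 1 or 2 (0.508 and 0.477). Slc38a7 (-0.019) and Slc15a4 (0.029) had the highest levels of this list and did not pass. Of 11 mitochondrial carriers, 10 were tested and 0 were called by edgeR, beside 3.17% of all tested genes. At an unadjusted p under 0.05 there were 0, beside 7.61% of all tested genes higher and 7.65% lower. DESeq2 also called 0, but it gave no adjusted p to 9144 of all 16264 genes and could not call those. The highest of the mitochondrial carriers, Slc25a13 (0.027) and Slc25a15 (0.037), carry aspartate with glutamate and ornithine with citrulline.

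All 33 genes of amino acid sensing, of mTORC1 and of its regulators were tested. None was called by edgeR, beside 3.17% of all tested genes, and the median log2 fold change was -0.017. At an unadjusted p under 0.05, 2 were higher and 4 lower (7.61% and 7.65% over all tested genes). DESeq2 called none of the 33 either, but it gave no adjusted p to 9144 of all 16264 genes. Sesn2, whose product senses leucine, had 12582 and 12439 counts in WT_CTCF and 11764 and 11918 in MUT_CTCF mESCs, and its log2 fold change of -0.085 did not pass (edgeR adjusted p = 0.147). Sec13, a subunit of the GATOR2 complex and of nuclear pores, had -0.085 (edgeR adjusted p = 0.294).

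Cystine taken up by xCT feeds glutathione. Of 9 genes of glutathione synthesis, use and breakdown and of cystine reduction, 1 was called higher and 1 lower, beside 1.56% and 1.61% of all tested genes. The median log2 fold change of the 9 was -0.090. The log2 fold change was negative for 7 of the 9, beside 7997 of all 16264 tested genes. At an unadjusted p under 0.05 there were 1 higher and 4 lower, beside 7.61% and 7.65% of all tested genes. The synthesis genes Gclc (-0.096), Gclm (-0.12) and Gss (-0.10) were not called (edgeR adjusted p = 0.428, 0.198 and 0.319). Chac1, which encodes an enzyme that degrades glutathione and is a known ATF4 target, had 286 and 213 counts in WT_CTCF and 464 and 538 in MUT_CTCF mESCs, and rose (log2 fold change 1.0, standard error 0.141, edgeR adjusted p = 1.50e-06). It did not pass without the filter (adjusted p = 0.108, from 1.21e-10 to 0.477 over the settings tried) or without MUT_CTCF replicate 1 or 2 (0.387 and 0.477), and DESeq2 gave it no adjusted p. Txn1, which encodes thioredoxin, had 8207 and 8006 counts in WT_CTCF and 7443 and 7489 in MUT_CTCF mESCs, and fell (log2 fold change -0.12, standard error 0.036, edgeR adjusted p = 0.0412). Txn1 did not pass with scaling by library size only (adjusted p = 0.0844), with DESeq2 (0.0512), in edgeR's exact test (0.0561), without the filter (0.275) or without any 1 of the libraries (0.134 to 0.489). Gpx4, a glutathione peroxidase, did not pass either (log2 fold change 0.034).

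**Figure D4:**
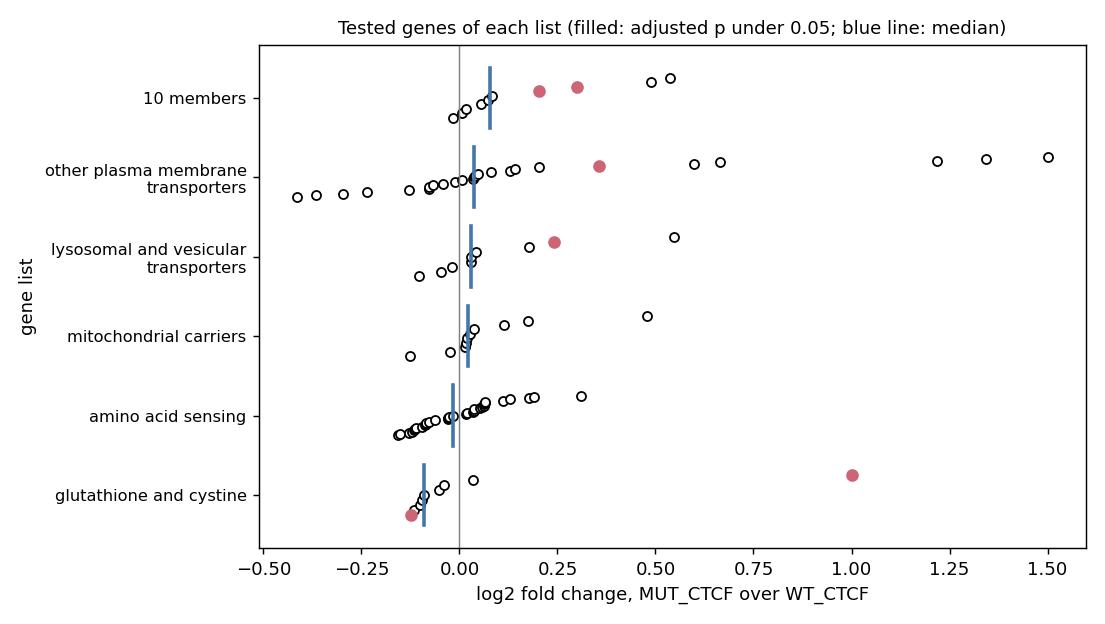
Log2 fold change (x axis) of each tested gene in the 10 transporter genes and in 5 other lists (rows), with filled points for an adjusted p under 0.05 and a blue line at the median of each list. Called genes are Slc7a1 and Slc1a5 in the first row, Slc1a4, Slc36a1, and Chac1 and Txn1 in the last row, and the medians lie between -0.090 and 0.078.

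Genes of factors known to act on these transporters were read in the same libraries. Atf4 had 12178 and 11867 counts in WT_CTCF and 12102 and 12045 in MUT_CTCF mESCs, with no difference called (log2 fold change 0.00048, standard error 0.032, edgeR adjusted p = 0.998), although ATF4 is known to be set mainly by translation. Its partner genes Ddit3 (0.21) and Cebpb (0.33, and 0.161 to 0.483 with 1 library left out) did not pass, nor did Nfe2l2 (0.11), the gene of NRF2, its inhibitor gene Keap1 (0.017), Mycn (0.013) or Hif1a (-0.16). Myc, an activator of Slc7a5 and Slc1a5 in many cells, had 779 and 839 counts in WT_CTCF and 657 and 569 in MUT_CTCF mESCs, and fell (log2 fold change -0.41, standard error 0.101, edgeR adjusted p = 0.0115). Myc did not pass without the filter (adjusted p = 0.249, from 0.00283 to 0.495 over the settings tried) or without WT_CTCF replicate 2 (0.145), MUT_CTCF replicate 1 (0.449) or MUT_CTCF replicate 2 (0.495), and DESeq2 gave it no adjusted p. Trp53, whose product p53 is a known repressor of Slc7a11, fell (log2 fold change -0.13, standard error 0.025, edgeR adjusted p = 0.000674), and did not pass without the filter (adjusted p = 0.186, from 1.85e-05 to 0.447 over the settings tried) or without MUT_CTCF replicate 1 or 2 (0.447 and 0.315). The part of these factors in the transporter values was not tested.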

How the data were processed

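RNA-seq counts were taken from 2 WT_CTCF and 2 MUT_CTCF libraries. Reads were trimmed by the authors using Trim Galore 0.4.4. They used STAR for alignment to mm9 and HTSeq 0.9.1 for counting, and deposited gene counts of uniquely mapped reads without normalization. The strand setting and the annotation were not given in the sources used here. Another deposited table, the authors' own edgeR comparison (log2 fold change, average log2 CPM, p-value and false discovery rate), was not used. Columns were mapped to libraries by name, and replicates differed by more than sampling noise (chi-square per degree of freedom 3.64 and 4.35), so none was counted as a duplicate.

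Gene names, places and exon lengths came from GENCODE M1 (NCBIM37, the same build as mm9), which named 37205 of 37620 identifiers. Genes were filtered by edgeR's filterByExpr at a minimum count of 10, scaled by TMM and tested with the line as the single term by glmQLFit and glmQLFTest of edgeR 4.0.16 under R 4.3.3, with Benjamini-Hochberg adjustment over 16264 genes. The common dispersion was 0.0022. The standard error is the log2 fold change divided by the root of F, and 95% intervals use the t quantile at the total degrees of freedom and are unadjusted. Values per exon length (RPKM) are counts divided by the length of merged exons and by the TMM-scaled library size. SD is over 2 libraries. The fits, apart from those with a library left out, were tested on simulated data with the same spread for all genes. The plain fit without a filter was exempt from the check that changed genes were recovered.

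The genes named were the 10 transporters, the 3 smallest p among called genes and the 2 highest levels per exon length of each further list, all 9 regulators, the 5 genes nearest to the member with the smallest p, and Ctcf. Each gene's call is adjusted over all tested genes. The members and lists were chosen with earlier results of these data known. Slc38a9 (2 identifiers share the name) and Sox1 were not analysed here. The fits were repeated with each library left out, with the replicate as a block, with no filter or one of 10 reads per library, with library size only or DESeq2 size factors, and with edgeR's exact test and DESeq2 1.42.0. A robust estimate of the spread without a filter was added after the data had been seen.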

Additional observations from a re-analysis of the deposited data

How the results depend on the processing

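The count of 2 transporters called higher held under DESeq2, edgeR's exact test, DESeq2 size factors, library size only, at least 10 reads in every library, the robust fit without a filter, and the replicate block. It was 0 without a filter on low counts, 0 where a fold change above 2 was asked for beside an unadjusted p under 0.05, and 0 to 2 with 1 library left out. Without a filter the prior degrees of freedom were 5.96 in place of 53.9. In fits with 1 library left out, the lone library of a line is assumed to vary like the other line. Over all genes, calls higher were 26 without a filter, 129 with DESeq2 and 0 to 140 with 1 library left out, and calls lower were 152 with library size only, 3 without a filter and 0 to 102 with 1 library left out. DESeq2 gave no adjusted p for 9144 genes, which include Slc7a7, Slc7a11, Slc6a9 and Slc43a1.

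The replicate block called 698 genes in place of 515 and changed no call among the 38 named genes. The differences between replicates 1 and 2 of the 2 lines correlated across 16264 genes with r = -0.0192. The labels name no batch, and this correlation cannot show whether libraries of the same number shared one.

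Signs changed for genes near 0. Slc38a10 was 0.0014 with library size only, and Atf4 was -0.000817 without a filter, with and without the robust spread. With 1 library left out, log2 fold changes ran from -0.191 to 0.179 for Slc7a7, -0.0358 to 0.00117 for Slc38a2, -0.0812 to 0.108 for Slc43a1, -0.0337 to 0.0105 for Slc38a10, -0.0852 to 0.152 for Slc15a4, -0.0455 to 0.00616 for Slc38a7, -0.00214 to 0.0549 for Slc25a13, -0.0131 to 0.0373 for Mycn, -0.0427 to 0.0781 for Keap1 and -0.0186 to 0.0183 for Atf4. The causes were not tested. Slc7a5 kept its sign and ran from 0.0516 to 0.113. Slc7a11 and Slc6a9 had the fewest counts and the largest standard errors of the 10 transporters.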

Other observations

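A few transporters at low counts scattered between libraries of the same line, and they are named here after their values were seen. Slc1a2, the main glutamate transporter of astrocytes, had 24 and 7 counts in WT_CTCF and 89 and 0 in MUT_CTCF mESCs, and its log2 fold change of 1.5 did not pass (standard error 0.718, edgeR adjusted p = 0.307). Slc6a5, the neuronal glycine transporter GLYT2, had 2 and 14 counts in WT_CTCF and 1 and 1 in MUT_CTCF mESCs and was not tested.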
